A study of Mus musculus with 4 samples.

Results

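The 9 genes described here encode MYC-type transcription factors and the proteins that share their partner MAX: Myc, Mycn, Mycl, Max, Mga, Mnt, Mxi1, Mxd3 and Mxd4. They were taken by gene symbol, as a list drawn up with earlier results of these data known, from the 47633 genes measured in mouse embryonic stem (ES) cells and in cells kept without leukaemia inhibitory factor (LIF). All 9 were found, and all 9 stood at 1 FPKM or more in each of the 4 libraries (FPKM, fragments per kilobase of transcript scaled to library size, corrects a level for gene length and for sequencing depth).

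MYC, MYCN and MYCL are basic helix-loop-helix leucine zipper proteins that bind DNA as heterodimers with MAX, at E-box sites, and activate genes of ribosome production, metabolism and growth. MNT, MXI1 (also known as MXD2), MXD3 and MXD4 pair with MAX at the same kind of site and recruit SIN3 and histone deacetylases, which repress transcription. MGA carries a T-box as well as a MAX-binding domain, belongs to the Polycomb complex PRC1.6, and together with MAX holds germ-cell genes silent in mouse ES cells. Myc is known as a target of LIF and STAT3 in these cells, where Myc and Mycn have overlapping roles in self-renewal.

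The study made total RNA libraries from cells of the 129S2/SvPas strain: 1 library from cells kept for 2 days without LIF, 1 library labelled embryoid body from cells kept for 5 days without LIF, and 2 libraries of ES cells (ES 1 and ES 2) with LIF. The ES cells were grown with serum on embryonic fibroblast feeders of C57/BL6 mice that had been treated with mitomycin C. The labels do not say whether ES 1 and ES 2 came from separate cultures, and p-values here then measure only how far these samples lie apart, a spread that can be technical. Neither group without LIF has a replicate, and the labels do not say whether feeder cells were still present in them.

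Implied depth was 31.5 M fragments in ES 1 and 26.4 M in ES 2. It was lowest, at 18.1 M, at 2 days without LIF, with 26.4 M in the library labelled embryoid body. A count of 3 fragments in a gene model of 1 kb corresponds to 0.0954 to 0.166 FPKM. In the 2-day library the 10 highest genes held 44.7% of the summed FPKM. That share was 15.5% in ES 1, 9.80% in ES 2 and 17.4% in the library labelled embryoid body. Each 2-day value below comes from this single library, and results under other scalings are given in the last section. ES 1 and ES 2 were at least 1.5-fold apart in 11.6% of the 15676 genes at 1 FPKM or more in some library, and in 0 of the 9 genes described here. Pluripotency was checked with Pou5f1, Sox2, Nanog, Zfp42, Esrrb and Klf4, and all 6 exceeded 1 FPKM in every library. They summed to 1135 FPKM after 2 days without LIF, against 1253 and 1226 FPKM in ES cells. In the 5-day library labelled embryoid body the sum was 1329 FPKM. At 2 days 2 of the 6 lay above the ES mean and 4 below, with Klf4 at 121 FPKM, against 176 and 165 FPKM in ES cells. In the library labelled embryoid body 4 lay above, with Nanog at 156 FPKM, against 113 and 108 FPKM in ES cells. There 2 lay below, with Klf4 at 131 FPKM. Markers of differentiated layers (8 genes, among them T, Sox17, Gata6 and Pax6) summed to 13.5 FPKM at 2 days without LIF and 6.13 FPKM in the 5-day library labelled embryoid body, against 14.3 and 13.1 FPKM in ES cells, so the markers go against the label of an aggregate of differentiating cells, and the library is called by its label only. Of the 4 layer markers tested, Eomes rose at 2 days (limma, log2 change 1.03, adjusted p = 0.0285) and 0 were called in the library labelled embryoid body. Over strand-clear genes the counts were 0 at 2 days, where Eomes is not in the set, and 1 in the library labelled embryoid body, where Nes, a neural progenitor gene, was lower (log2 change -1.37, limma adjusted p = 0.0224). Feeder markers (10 genes, among them Postn, Dcn, Col1a1 and Col5a2) summed to 117 FPKM at 2 days and 61.2 FPKM in the 5-day library labelled embryoid body, against 57.6 and 55.1 FPKM in ES cells. Of the 9 feeder markers tested, 3 rose after 2 days without LIF (limma: Postn, adjusted p = 0.0396; Dcn, adjusted p = 0.0192; Col5a2, adjusted p = 0.0202), against 7.67% of all tested genes called in either direction; Dcn passed the filter only through the libraries without LIF. In the library labelled embryoid body 0 were called over all genes and 2 over strand-clear genes, against 0.396% and 2.30% of the genes tested. There Dcn was at 11.1 FPKM, against 0.695 and 0.664 FPKM in ES cells, and Col3a1 at 4.31 FPKM, against 1.27 and 0.980 FPKM. Others of the list were lower there: Col5a2 was at 3.44 FPKM, against 7.72 and 7.64 FPKM, and Col1a1 at 4.47 FPKM, against 6.71 and 7.29 FPKM. Of the 9 tested, 5 lay above the ES mean in the library labelled embryoid body and 4 below. Lum, a fibroblast proteoglycan, was at 0.0564 FPKM at 2 days and 0.493 FPKM in that library, against 0.0160 and 0 FPKM in ES cells. The part of feeder cells in any value below was not tested, and in a bulk library fewer cells of a type and less RNA per cell cannot be told apart.

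The proteins share a short basic region that contacts DNA, and the codons of this region are shown because they separate MYCN, MYCL, MAX and MGA from MNT and the MXD repressors. Each line gives 27 bases of the coding strand from the GENCODE mouse release 21 transcripts on mm10, with the codons for histidine, glutamate and the closing pair of arginines (codons 1, 5, 8 and 9) in capitals.
Mycn, chr12:12937219-12937245, minus strand: CACaacatcctgGAGcgtcaaCGCCGG
Mycl, chr4:123000276-123000302, plus strand: CATaacttcttgGAAcgaaaaAGGAGG
Max, chr12:76953232-76953258, minus strand: CATaatgcactgGAAcgaaaaCGTAGG
Mga, chr2:119958247-119958273, plus strand: CACactgccaatGAGcggcgtCGGCGT
Mnt, chr11:74837450-74837615, plus strand, across an intron: CACaacaaattgGAGaagaacAGGAGG
Mxi1, chr19:53346458-53369545, plus strand, across an intron: CACaatgagttgGAAaagaacCGACGA
Mxd3, chr13:55328481-55328636, minus strand, across an intron: CACaacgagctgGAGaagcgcAGGAGA
Mxd4, chr5:34178921-34184336, minus strand, across an intron: CACaacgaactaGAAaagcacAGACGA

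The windows were found by a search that required the residues of the capital codons, so these residues are the same in all 8 lines by design. Between genes the capital codons differ by synonymous changes. At codon 6 the search allowed only arginine or lysine. Codon 6, in lower case, encodes arginine in Mycn, Mycl, Max and Mga (cgt, cga, cga and cgg) and lysine in Mnt, Mxi1, Mxd3 and Mxd4 (aag in all 4). Mnt and Mxd3, Mxi1 and Mxd4, and Mxd3 and Mxd4 shared 77.8% of the 27 bases, and Mycl and Max shared 74.1%. The lowest shares were between Mga and Mycl and between Mga and Mnt, at 40.7%. In MGA these codons stand for residues 2406 to 2414 of 3042, near the end of the protein, while in MAX they stand for residues 28 to 36 of 160.

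On mm10, the Myc gene lies at chr15:61985391-61990374 (plus strand), Mycn at chr12:12936093-12941914 (minus) and Mycl at chr4:122995652-123002485 (plus). Max lies at chr12:76937269-76962201 (minus), Mga at chr2:119897228-119969581 (plus) and Mnt at chr11:74830920-74845725 (plus). Mxi1 lies at chr19:53310518-53375810 (plus), Mxd3 at chr13:55325168-55329823 (minus) and Mxd4 at chr5:34173883-34187720 (minus). No run of 50 bases was shared between transcripts of any of these 9 genes, and runs shared with other genes made up 0% of Myc, Mycn, Mycl and Mnt and at most 5.40%, in Mxd4, of the rest. The first 6 lie outside every gene body of the opposite strand and are called strand-clear here. The last 3 do not, and since the labels do not say whether reads were assigned by strand, their values are less certain. Prelid1, a mitochondrial lipid-transfer gene, overlaps 105 of 2369 exon bases of Mxd3 and stood at 146 FPKM at 2 days without LIF and 174 FPKM in the 5-day library labelled embryoid body, against 182 and 183 FPKM in ES cells. Antisense gene Gm42846 overlaps 514 of 8483 exon bases of Mxd4 and was at 0.959 FPKM at 2 days without LIF and listed at 0 in the other 3 libraries. Gm10197, which overlaps 194 of 6823 exon bases of Mxi1, was listed at 0 throughout.

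The 9 genes covered a wide range of levels in ES cells. Mycn was at 155 FPKM in ES 1 and 148 FPKM in ES 2, and Mga at 129 and 148 FPKM, so the order of these leading genes differed between the ES libraries. Both lay above at least 95.9% of tested genes. Max was next with 43.7 and 43.1 FPKM, followed by Myc with 17.1 and 16.4 FPKM and Mnt with 14.2 FPKM in both. Mxi1 (3.59 and 3.55 FPKM), Mycl (3.10 and 3.998 FPKM), Mxd3 (2.96 and 3.33 FPKM) and Mxd4 (2.54 and 2.67 FPKM) formed a low group. Within it the ES values of Mycl spanned those of Mxi1 and overlapped those of Mxd3, and Mxd4 was lowest in both ES libraries. Mycl lay above 34.2% of tested genes in ES 1 and 39.3% in ES 2. These levels correspond to 16112 implied fragments for Mycn and 62161 for Mga in ES 1, but only 221 for Mxd3 there, so counting error was under 1% for the leading genes and 6.73% for Mxd3.

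**Figure D1:**
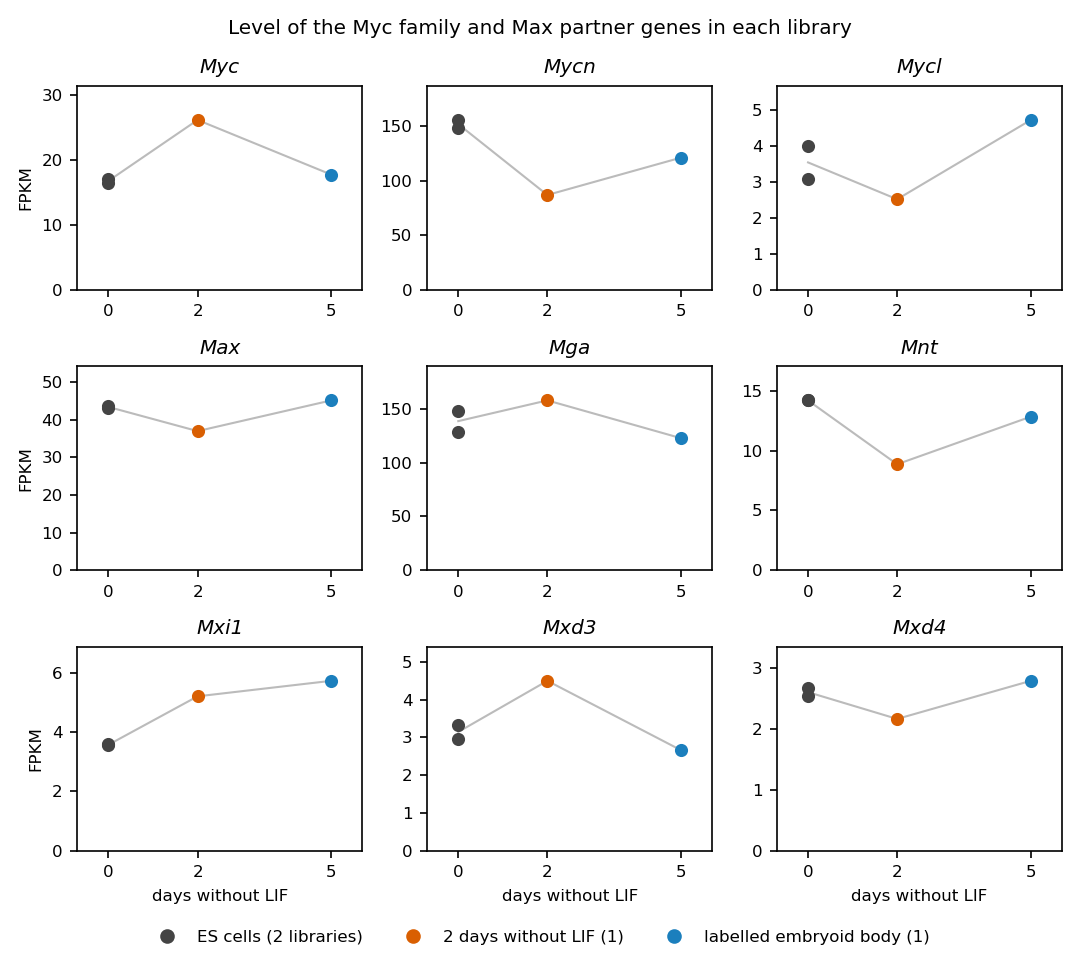
Level of each of the 9 genes (FPKM, linear axes that start at 0 and differ between panels) against days without LIF, 1 point per library, with a grey line through the ES mean and the single libraries. Mycn and Mga had the highest levels in every library, Myc peaks and Mycn dips at 2 days, and Mycl, Mxi1, Mxd3 and Mxd4 stayed under 6 FPKM.

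The comparison of 2 days without LIF with ES cells asks which members of the network differed soon after the cytokine was removed. Myc and Mycn lay on opposite sides of ES cells: Myc was 1.56-fold higher and Mycn 1.75-fold lower than the ES mean, while the MAX-binding repressor Mnt was 1.602-fold lower. None of the 9 genes was called by limma at a Benjamini-Hochberg adjusted p under 0.05 with a change of at least 2-fold, the rule by which 7.67% of the 15676 tested genes were called. Of all the genes called at 2 days, 1147 were higher than in ES cells and 56 lower. At an unadjusted p under 0.05 there were 5 of 9 members, against 37.2% of all tested genes. Among strand-clear genes the same rule called 0 of the 6 members and 3.07% of 7175 genes. With no minimum fold, a rule added after the data were seen, 3 of the 6 (Mycn, Myc and Mnt) had an adjusted p under 0.05, against 23.2% of strand-clear genes. By size alone, 0 of 9 were 2-fold from both ES libraries. At 1.5-fold the same 3 genes passed, which is 3 of 9 members against 24.3% of all tested genes, or 3 of 6 strand-clear members against 16.3% of strand-clear genes.

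Mycn, the predominant family member in ES cells, was at 86.8 FPKM after 2 days without LIF, against 155 and 148 FPKM in ES cells. This value lay far below both ES libraries, which differed from each other by little. The log2 difference was -0.80 (SE 0.05), with an adjusted p of 0.0573 in limma over all genes and 0.0199 over strand-clear genes. Mycn was still above 93.4% of tested genes in that library. Myc went the other way, with 26.1 FPKM at 2 days without LIF against 17.1 and 16.4 FPKM in ES cells. The log2 difference was 0.61 (SE 0.05), with an adjusted p of 0.0634 over all genes and 0.0228 over strand-clear genes. Mycl, the least abundant of these genes, was at 2.52 FPKM at 2 days, against 3.10 and 3.998 FPKM in ES cells. It lay below both ES libraries, but these were themselves far apart, and the log2 difference of -0.36 had an SE of 0.19 (limma, adjusted p = 0.334).

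Max, the obligate partner, was at 37.0 FPKM at 2 days without LIF, against 43.7 and 43.1 FPKM in ES cells. The value lay below a narrow ES range, with a log2 difference of -0.23 (SE 0.02, limma adjusted p = 0.0829). Mga was at 158 FPKM at 2 days, against 129 and 148 FPKM in ES cells, a log2 difference of 0.19 (SE 0.13) that in FPKM was no larger than the distance between the ES libraries (limma, adjusted p = 0.422). Mnt, a broadly expressed MAX-binding repressor, was at 8.85 FPKM at 2 days, against 14.2 FPKM in both ES libraries. The ES values of Mnt differed by less than 1%, and the log2 difference was -0.62 (SE 0.04), with an adjusted p of 0.0517 over all genes and 0.0227 over strand-clear genes in limma.

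The MXD proteins are best known from cells leaving the cell cycle, except MXD3, which is known from proliferating cells. Mxi1 was at 5.21 FPKM at 2 days without LIF, against 3.59 and 3.55 FPKM in ES cells (log2 difference 0.44, SE 0.06, limma adjusted p = 0.0931). Mxd3 was at 4.50 FPKM at 2 days, against 2.96 and 3.33 FPKM in ES cells (0.41, SE 0.10, adjusted p = 0.153). Its neighbour Prelid1, on the other strand, was lower at 2 days than in either ES library. Mxd4 was at 2.17 FPKM at 2 days, against 2.54 and 2.67 FPKM in ES cells (-0.19, SE 0.06, adjusted p = 0.191). Each of the 9 genes thus lay outside the ES pair at 2 days, 4 above and 5 below, as did 85.0% of all tested genes, so this count is near the background. Their median log2 difference was -0.19, against 0.04 over all tested genes.

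**Figure D2:**
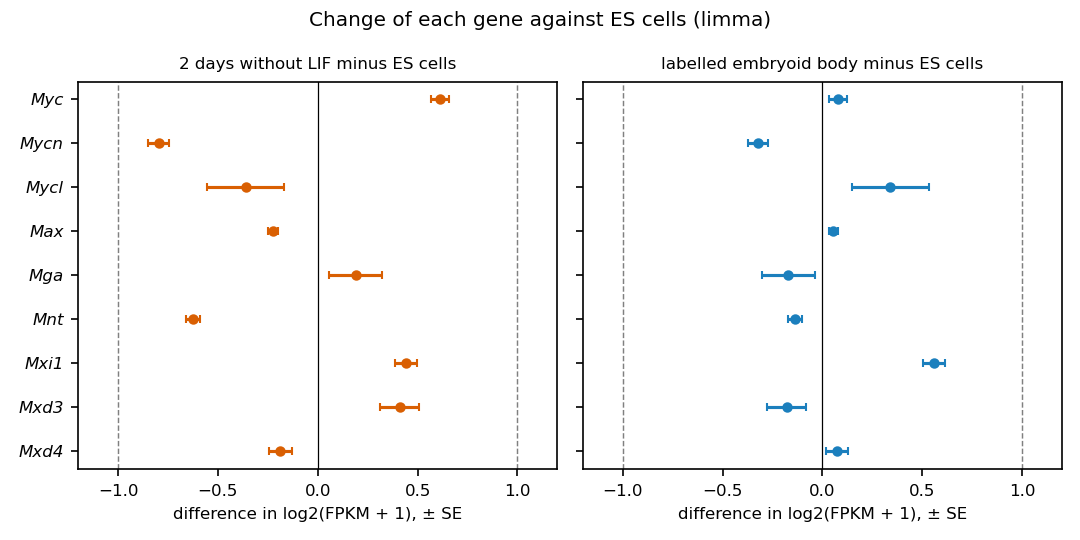
Log2 differences from the ES mean on the log2(FPKM + 1) scale for the 9 genes, with standard errors from limma and dashed lines at 1 and -1, for 2 days without LIF and for the library labelled embryoid body. Mycn (-0.80) and Myc (0.61) lie at the ends of the 2-day comparison, and no gene reaches 1 or -1.

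In the library labelled embryoid body Mycn, Myc and Mnt were closer to ES cells than at 2 days, while Mxi1 was farther from them. None of the 9 genes was called by limma at a 2-fold change, against 0.396% of all tested genes. At an unadjusted p under 0.05 there were 2 of 9 (Mxi1 and Mycn), against 27.7% of all tested genes. Over strand-clear genes 0 of 6 members were called, against 2.30% of the set. With no minimum fold the count was also 0 of 6, against 15.1%. By size, 0 of 9 were 2-fold from both ES libraries and 1 of 9 (Mxi1) was 1.5-fold from both, against 16.3% of all tested genes. Of the 6 strand-clear members 0 passed at 1.5-fold, against 13.9% of strand-clear genes.

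Mycn was at 121 FPKM in the library labelled embryoid body, against 155 and 148 FPKM in ES cells. It was lower than both, by a log2 difference of -0.32 (SE 0.05), with an adjusted p of 0.158 over all genes and 0.0580 over strand-clear genes in limma. Myc was at 17.7 FPKM, just above the 17.1 and 16.4 FPKM of ES cells (log2 difference 0.08, SE 0.05, limma adjusted p = 0.415). Mycl was at 4.73 FPKM, against 3.10 and 3.998 FPKM in ES cells (0.34, SE 0.19, adjusted p = 0.400).

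Among the partners, Max was at 45.2 FPKM in the library labelled embryoid body, against 43.7 and 43.1 FPKM in ES cells (log2 difference 0.06, limma adjusted p = 0.321). Mga was at 123 FPKM, against 129 and 148 FPKM (-0.17, adjusted p = 0.506), and Mnt at 12.8 FPKM, against 14.2 FPKM in both ES libraries (-0.13, adjusted p = 0.213). Max, Mga and Mnt were thus each within 1.13-fold of their ES means. Mxi1 had the largest difference among the 9 genes here, with 5.73 FPKM against 3.59 and 3.55 FPKM in ES cells, 1.603-fold the ES mean (log2 difference 0.56, SE 0.06, adjusted p = 0.139). Mxd3 was at 2.66 FPKM, against 2.96 and 3.33 FPKM (-0.18, adjusted p = 0.391), and Mxd4 at 2.79 FPKM, against 2.54 and 2.67 FPKM (0.07, adjusted p = 0.507). All 9 genes again lay outside the ES pair, 5 above and 4 below, against 80.5% of all tested genes, with a median log2 difference of 0.06 against -0.01 over all tested genes.

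The derived libraries were set side by side without a test, as each is a single library, and both comparisons above share the ES libraries. In the library labelled embryoid body, minus 2 days without LIF, Mycn was higher by 0.47 on the log2(FPKM + 1) scale, Mnt by 0.49 and Mycl by 0.70. Myc was lower by a log2 difference of -0.53 and Mxd3 by one of -0.59. Mxi1 differed by 0.12 between them, at 1.603-fold the ES mean in the library labelled embryoid body and 1.46-fold at 2 days. Max and Mxd4 were higher in the library labelled embryoid body by 0.28 and 0.26, and Mga was lower, with a difference of -0.36.

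Ratios within a library do not depend on how libraries are scaled to each other, but they compare transcript levels only, not protein or dimer amounts, and Mxi1, Mxd3 and Mxd4 are not strand-clear. Of the summed FPKM of Myc, Mycn and Mycl, Myc made up 22.6% at 2 days without LIF and 12.4% in the library labelled embryoid body, against 9.74% and 9.76% in ES cells. Mycn made up 75.2% and 84.3% of the sum in these derived libraries, against 88.5% and 87.9% in ES cells, so it was the main family transcript in all 4 libraries. Mycn over Myc was 3.32 at 2 days and 6.82 in the library labelled embryoid body, against 9.08 and 8.999 in ES cells. Here the derived libraries lay well outside a narrow ES range, and the 2-day library was the farther of the 2.

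The summed level of Myc, Mycn and Mycl was 115 FPKM at 2 days without LIF and 143 FPKM in the 5-day library labelled embryoid body, against 176 and 168 FPKM in ES cells. Mycn was the largest term of the sum in all 4 libraries. Relative to Max, the sum was 3.12 at 2 days and 3.18 in the library labelled embryoid body, against 4.02 and 3.90 in ES cells. Both derived libraries were below the ES pair, though in the library labelled embryoid body Max itself was slightly higher than in ES cells. Mnt over Max was 0.239 at 2 days and 0.284 in the library labelled embryoid body, against 0.324 and 0.329 in ES cells. Summed Mxd1, Mxi1, Mxd3 and Mxd4 over Max ran the other way, at 0.400 and 0.333 in these derived libraries, against 0.279 and 0.297 in ES cells. Mga over Max was 4.26 at 2 days and 2.71 in the library labelled embryoid body, on opposite sides of the ES values of 2.95 and 3.44. The Myc-type sum over Mnt was 13.0 and 11.2 in the derived libraries, against 12.4 and 11.9 in ES cells, as Mycn and Mnt were lower together at 2 days.

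**Figure D3:**
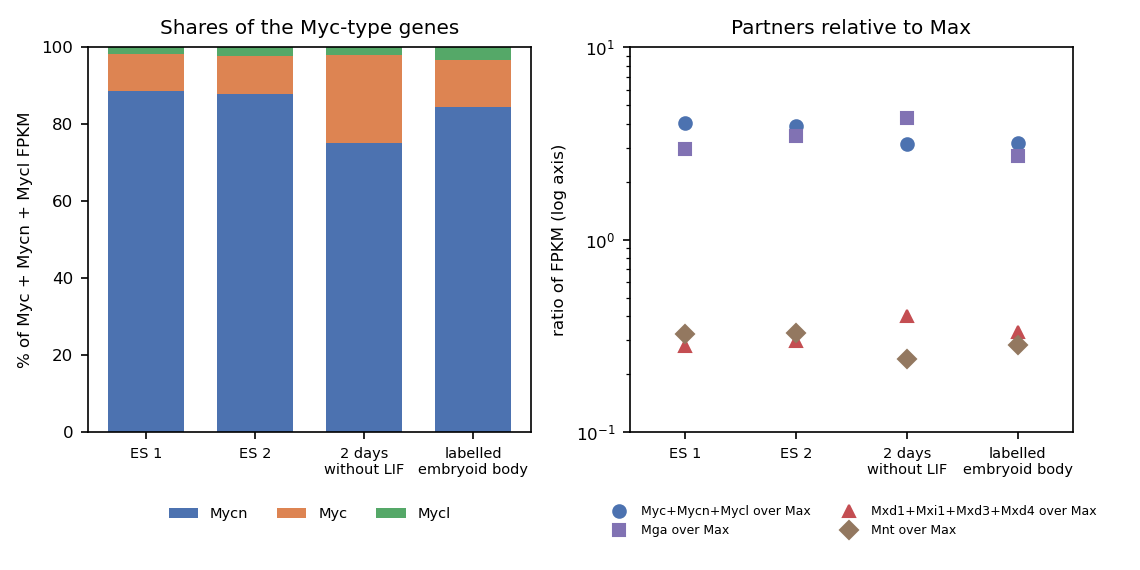
Left, shares (%) of Myc, Mycn and Mycl in their summed FPKM per library; right, ratios of partner sums to Max on a log axis. Myc holds 22.6% of the sum at 2 days without LIF, against 9.74% and 9.76% in ES cells, and the ratio of Mnt to Max is lowest and that of the MXD genes highest in the same library.

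Genes that work with this network were followed as 8 lists, and 0 genes of any of the 8 were called in either comparison by the 2-fold rule. That rule called 7.67% of all tested genes at 2 days and 0.396% in the library labelled embryoid body. A count of 0 is thus near the background in the library labelled embryoid body. At an unadjusted p under 0.05 in limma, at 2 days and in the library labelled embryoid body, there were 1 and 1 of the 5 other network genes, 4 and 3 of the 14 cofactors, 2 and 3 of the 8 corepressors, 4 and 3 of the 10 PRC1.6 genes, 2 and 2 of the 9 stability genes and 4 and 5 of the 10 upstream genes, against 37.2% and 27.7% of all tested genes. The 5 other network genes (Mxd1, Mlx, Mlxip, Mlxipl and Bmyc) had a median log2 difference of -0.10 at 2 days and -0.13 in the library labelled embryoid body. Mlx, which pairs with the glucose sensors of the family, was at 69.6 FPKM at 2 days and 76.6 FPKM in the 5-day library labelled embryoid body, against 70.1 ± 1.04 FPKM in ES cells (SD, n = 2). Mlxip was at 8.20 and 7.43 FPKM, against 8.23 ± 0.0217 FPKM.

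Of 14 MYC cofactors 0 were called in either comparison, with medians of -0.00 and 0.01. For these lists, 7.67% and 0.396% of all tested genes are the shares called at 2 days and in the library labelled embryoid body. Ruvbl2, an ATPase of the TIP60 complex, was at 125 FPKM at 2 days and 109 FPKM in the 5-day library labelled embryoid body, against 128.5 ± 6.60 FPKM in ES cells. Actl6a, an actin-related subunit of the same complex, was at 106 and 105 FPKM, against 91.7 ± 2.73 FPKM. The corepressor list (8 genes around SIN3 and NCoR, 0 called) had medians of 0.05 and -0.03. Its most abundant member Ncor1 was at 314 FPKM at 2 days and 289 FPKM in the 5-day library labelled embryoid body, against 246 ± 4.99 FPKM (limma adjusted p = 0.0874 and 0.164). Rbbp7, a histone-binding subunit, was at 185 and 154 FPKM, against 213 ± 7.14 FPKM. The 10 genes of PRC1.6, the complex of MGA, had 0 called and medians of 0.01 and -0.03. Its ubiquitin ligase Rnf2 was at 120 and 115 FPKM, against 105 ± 1.61 FPKM, and Wdr5 was at 96.6 and 83.8 FPKM, against 96.0 ± 6.63 FPKM.

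The genes that control MYC protein stability (9 of 10 passed the filter, 0 called) had medians of -0.17 at 2 days and 0.01 in the library labelled embryoid body. Huwe1, a ubiquitin ligase, was at 217 and 239 FPKM, against 226 ± 4.27 FPKM in ES cells, and Ppp2ca, a phosphatase subunit, at 92.5 and 105 FPKM, against 104 ± 1.67 FPKM. Of the 10 genes upstream of Myc 0 were called, with medians of -0.12 and -0.17. For both lists the shares of all tested genes called were again 7.67% at 2 days and 0.396% in the library labelled embryoid body. Ctnnb1, which encodes beta-catenin, was at 171 and 214 FPKM, against 213 ± 21.9 FPKM. Rbpj, the DNA-binding factor of Notch signalling, was at 115 and 103 FPKM, against 89.4 ± 0.377 FPKM (limma adjusted p = 0.0527 and 0.140). Lin28a, named after its values were seen, was at 48.1 and 32.1 FPKM, against 76.2 and 77.3 FPKM in ES cells (log2 difference at 2 days -0.66, limma adjusted p = 0.0317). In the library labelled embryoid body the log2 difference of Lin28a was -1.23, and the gene was not called there either. Lin28a is not strand-clear, so its values are less certain. The RNA-binding protein it encodes blocks let-7, a microRNA known to target Myc.

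None of the 36 MYC target genes, which serve ribosome production, nucleotide synthesis and translation, was called in either comparison. By the same 2-fold rule 7.67% of all tested genes were called at 2 days and 0.396% in the library labelled embryoid body. At an unadjusted p under 0.05 there were 10 of 36 at 2 days and 8 of 36 in the library labelled embryoid body, against 37.2% and 27.7% of all tested genes. At 2 days the list had 17 genes above and 19 below the ES mean, with a median log2 difference of -0.03, while 54.7% of all tested genes lay above. In the library labelled embryoid body 5 were above and 31 (86.1%) below, with a median of -0.17, while 54.4% of all tested genes lay below and their median was -0.01. Npm1, a nucleolar chaperone, was at 2699 FPKM at 2 days and 3181 FPKM in the 5-day library labelled embryoid body, against 3345 ± 90.8 FPKM in ES cells (limma adjusted p = 0.463 and 0.889). The translation helicase Eif4a1 was at 1093 and 1274 FPKM, against 1223 ± 9.56 FPKM.

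**Figure D4:**
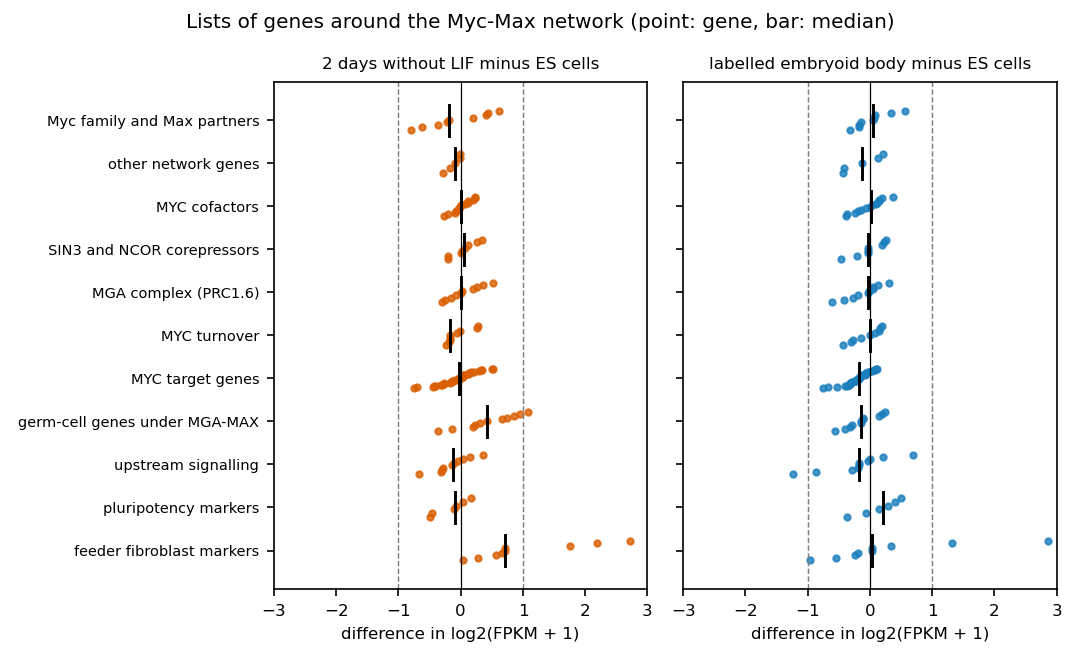
Log2 difference from the ES mean of each tested gene in the 9 genes, the 8 lists and the pluripotency and feeder markers, at 2 days without LIF and in the library labelled embryoid body; bars mark medians and dashed lines 1 and -1. The MYC targets have medians of -0.03 at 2 days and -0.17 in the library labelled embryoid body, and the germ-cell points leave out 3 genes under 1 FPKM in every library.

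Germ-cell genes that MGA and MAX are known to hold silent in ES cells were examined as a list of 14, of which 11 passed the filter. The filter admits genes that reach 1 FPKM in any library, and Smc1b and Tdrd7 entered only through libraries without LIF, so the sides are given for all 14 without a filter, an alternative added after the data were seen. At 2 days without LIF 10 of the 14 lay above the ES mean and 4 below, while 55.2% of all 26187 genes above 0 lay above it. In the library labelled embryoid body 5 lay above and 9 below, while 53.2% of all genes lay below. By the 2-fold rule 0 of the 11 were called in each comparison, against 7.67% and 0.396% of all tested genes. The 3 that did not pass the filter (Dazl, Taf7l and Slc25a31) were under 1 FPKM in every library. Meioc, a regulator of meiotic entry, was at 19.9 FPKM at 2 days and 12.8 FPKM in the 5-day library labelled embryoid body, against 11.9 and 11.2 FPKM in ES cells. Stag3, a meiotic cohesin subunit, was at 13.2 and 7.33 FPKM, against 7.71 and 8.30 FPKM. Meioc stood above the ES pair in both derived libraries and Stag3 at 2 days but not in the library labelled embryoid body, with adjusted p at 2 days of 0.0708 for Meioc and 0.0858 for Stag3 over all genes, and 0.0224 and 0.0268 over strand-clear genes (limma). Chosen after its values were seen, Smc1b, another meiotic cohesin gene, was at 1.74 and 0.221 FPKM, against 0.520 and 0.523 FPKM in ES cells, and passed the filter only through the 2-day library. Zcwpw1, a reader of histone marks in meiosis likewise chosen, was at 11.3 and 4.24 FPKM, against 4.36 and 5.29 FPKM. Neither gene is strand-clear. Ddx4, a germ-cell RNA helicase, was at 5.53 and 4.74 FPKM, below both ES values of 6.997 and 7.87 FPKM. The summed feeder markers were also highest at 2 days (117 FPKM, against 57.6 and 55.1 FPKM in ES cells), though Dcn, Col3a1 and Lum were highest in the library labelled embryoid body and Fstl1 in ES 1; their part in this list was not tested.

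The site that MYC, MAX, MXD and MGA dimers recognise is the E-box CACGTG, which reads the same on both strands, and its presence near the start of these genes was looked up in RefSeq promoters on GRCm38.p6 (250 bases before to 50 after each start). Entries matched 8 of the 9 genes, all but Myc. The E-box was found in 3 of the 8 (37.5%), against 8.09% of 27025 genes with such an entry. The windows below show these 3 sites with 24 bases on either side, the E-box in capitals.
Max, chr12:76962222-76962275, minus strand: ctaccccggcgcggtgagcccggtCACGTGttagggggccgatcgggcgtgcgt
Mnt, chr11:74830777-74830830, plus strand: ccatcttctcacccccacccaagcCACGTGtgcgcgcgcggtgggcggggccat
Mxd4, chr5:34187900-34187953, minus strand: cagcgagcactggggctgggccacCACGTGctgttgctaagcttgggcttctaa

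The first base of the E-box is at position -3 from the start of Max, -123 from that of Mnt and -219 from that of Mxd4. At 2 days without LIF the FPKM of all 3 lay below both ES libraries, as did those of Mycn and Mycl, which have no CACGTG in this window. The motif TTCNNNGAA, bound by STAT factors and searched on both strands, was in 0 of the 8 promoters and in 9.55% of all genes with an entry. A match is only a match of letters, and no match says nothing of binding elsewhere. Among the germ-cell genes 7 of 13 with an entry (53.8%) held CACGTG, and among the MYC targets 10 of 29 (34.5%). Sites in 3 of these 7 germ-cell genes are shown with 12 bases on either side.
Stag3, chr5:138280327-138280356, plus strand: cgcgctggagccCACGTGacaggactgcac
Ddx4, chr13:112652322-112652351, minus strand: ggcgtccgcccgCACGTGcagccgtttaag
Stk31, chr6:49395472-49395501, plus strand: aggccggccaccCACGTGaccagggctgcg

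Stag3 (13.2 FPKM at 2 days, against 7.71 and 8.30 FPKM in ES cells) and Stk31 (2.53 FPKM, against 1.59 and 1.67 FPKM) lay above the ES pair at 2 days, while Ddx4 lay below it with the same 6 bases in its promoter. Among the germ-cell genes with an E-box not shown, Mael (3.29 FPKM, against 2.50 and 2.96 FPKM) and Taf7l lay above the ES pair at 2 days. Sycp3 (3.20 FPKM, against 3.77 and 3.47 FPKM) and Slc25a31 lay below it. No CACGTG was found for Meioc, Tex11, Smc1b, Zcwpw1, Tdrd7 and Tdrkh, which also lay above the ES pair at 2 days. Of the 14 germ-cell genes 13 had a promoter entry, so 1 of the genes without a match was not searched.

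Genes whose levels ran most like those of Mycn and Myc over the 4 libraries were sought among 4705 strand-clear genes at 5 FPKM or more on average, by the distance between log2(FPKM + 1) profiles centred on their means. Nearest to Mycn were Pnisr (distance 0.0858), Arxes2 (0.0871, a gene with a near-identical copy, Arxes1, so its value is less certain) and Ubald1 (0.0889). Pnisr was at 27.6 FPKM at 2 days and 35.5 FPKM in the 5-day library labelled embryoid body, against 47.3 and 45.0 FPKM in ES cells. Nearest to Myc were Ahnak2 (0.0291), E2f2 (0.0347) and Gm14305 (0.0414). E2f2, a cell-cycle transcription factor, was at 10.9 and 7.21 FPKM, against 6.74 and 6.49 FPKM in ES cells. Within a distance of 0.2 there were 39 genes for Mycn and 124 for Myc.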

How the data were processed

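The table used holds the FPKM of 47633 genes in 4 libraries, as the authors deposited it. Trimmomatic 0.36, STAR, Cufflinks and mm10 are named per the submitters' processing notes. Options, annotation release and strand setting were not given in the sources used here. Identifiers were matched without their version to GENCODE mouse release 21 (47219 matched, 414 did not).

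The test, on log2(FPKM + 1), covered the 15676 genes that reached 1 FPKM in some library and used limma 3.58.1 in R 4.3.3, its variance moderated along mean expression. All 4 libraries entered 1 model with 1 residual degree of freedom, given by ES 1 and ES 2, so each single library is assumed to vary as ES cells do. P-values were adjusted over all genes tested (Benjamini-Hochberg), and a gene was called where the adjusted p was under 0.05 and the log2 change was 1 or more in size. The pseudocount of 1 understates changes of low genes. Strand-clear genes (7175 tested) are protein-coding or long non-coding, have at least 1000 nt of exons and lie outside every gene body of the opposite strand. A size rule took genes at least 2-fold, or 1.5-fold, from both ES libraries on FPKM. Depth was inferred from the commonest low product of FPKM and exon length in single-transcript genes, taken as 1 fragment; floors of 3 fragments cover counting error only. Steps were tested on simulated data.

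The 9 genes, the 8 lists and the 3 marker lists were chosen with earlier results of these data known. The rule for named genes took, beside the 9, up to 4 called genes per list or, failing any, the 2 with the highest mean FPKM, and the 3 genes nearest to Mycn and to Myc. Alternatives were other pseudocounts, filters, scalings, gene sets and moderation, and leaving out each ES library. Tables and figures were made with Python 3.11.15, numpy 2.4.6, pandas 2.3.3 and matplotlib 3.10.9.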

Additional observations from a re-analysis of the deposited data

Results flagged for a closer look

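For 5 of the 9 genes the library at 2 days without LIF and the library labelled embryoid body lay on opposite sides of both ES libraries, which they share as controls. How often this held among all tested genes was not counted, so these 5 stand without a background share. Lying outside the ES pair on either side was common, at 85.0% of all tested genes at 2 days. For the 5-day library labelled embryoid body that share was 80.5%. The difference between the derived libraries was not tested, since each is a single library. On the log2(FPKM + 1) scale, as the library labelled embryoid body minus 2 days without LIF, it was 0.70 for Mycl, 0.28 for Max and 0.26 for Mxd4, which were below ES cells at 2 days and above them in the library labelled embryoid body. It was -0.36 for Mga and -0.59 for Mxd3, which were above ES cells at 2 days and below them in the library labelled embryoid body. None of these 5 genes was called in either comparison (limma), against 7.67% of all tested genes at 2 days and 0.396% in the library labelled embryoid body.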

How the results depend on the processing

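The direction of all 18 differences (9 genes, 2 comparisons) was kept with a pseudocount of 0.1, no filter on low values, median-of-ratios scaling, protein-coding sum scaling, no trend, and without either ES library; in the strand-clear set all 12 of the 6 members found there kept theirs. Calls at 2-fold stayed at 0 in each comparison under these settings, but limma calls could not be made without an ES library, as no residual degree of freedom is left. With an adjusted p under 0.05 and no minimum fold, a rule added after the data were seen, 3 strand-clear members passed at 2 days. In the library labelled embryoid body 0 did, and the shares of strand-clear genes were 23.2% and 15.1%. Over all genes 0 members passed in each comparison. Over all genes that 0 becomes 1 at 2 days, Mnt, with no filter (adjusted p = 0.0246), median-of-ratios scaling (0.0495) or no trend (0.0406) in limma. Lowering the size rule to 1.5-fold gave 3 members at 2 days and 1 in the library labelled embryoid body, each against 0 at 2-fold. At 1.5-fold 24.3% and 16.3% of all tested genes passed. Adjusted p at 2 days ranged over 7 settings of limma between 0.0199 and 0.0820 for Mycn, 0.0228 and 0.0878 for Myc, and 0.0227 and 0.0654 for Mnt. Over all alternatives, leaving out an ES library included, the log2 difference at 2 days ranged between -0.50 and -0.22 for Mycl and 0.09 and 0.29 for Mga. In the library labelled embryoid body it ranged between 0.20 and 0.48 for Mycl, -0.27 and -0.07 for Mga and -0.24 and -0.11 for Mxd3. Over strand-clear genes the called feeder markers were 3 at 2 days and 2 in the library labelled embryoid body (3 and 0 over all genes), and the called layer markers 0 and 1 (1 and 0 over all genes). The shares called were 3.07% and 2.30% of strand-clear genes, and 7.67% and 0.396% of all tested genes. No paired analysis was possible because the derived groups hold 1 library each, with no replicate number. Values of Mxd3 (167 to 221) and Mycl (184 to 505) rest on the fewest implied fragments, followed by Mxd4 (332 to 678) and Mxi1 (641 to 1034).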
